A study of Mus musculus with 3 samples.

Results

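Heat shock chaperones were examined as a set of 10 genes, Hspb1, Cryab, Hspb8, Hspa1a, Hspa1b, Hspa8, Hsp90aa1, Hspd1, Hspe1 and Dnajb1. They were chosen by gene symbol, and all 10 were measured among the 18194 genes with a single symbol on the array. The members are covered by 26 probe sets, each a set of oligonucleotides that reads 1 transcript or a group of related transcripts. Expression was measured in 3 lines of C2C12, a mouse myoblast cell line, grown in DMEM with puromycin and carrying a short hairpin RNA (shRNA) against FoxO1, FoxO3 or FoxO4. These are forkhead transcription factors. Each line came from colonies picked for how well the intended factor was depleted, so the hairpin and the colony cannot be told apart. A control RNAi enters the data only through the authors' deposited ratio for the FoxO1 line.

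Heat shock proteins are chaperones that bind unfolded or partly folded proteins. Small heat shock proteins hold such clients in oligomers without using ATP, and Hspb1 and Cryab are abundant in skeletal muscle, where they associate with the cytoskeleton and the Z-disc. The Hsp70, Hsp90 and chaperonin machines refold or mature clients in cycles of ATP binding and hydrolysis, helped by co-chaperones. Many of these genes are driven by heat shock factors, which bind alternating GAA and TTC units in their promoters.

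There was 1 array per line and no replicate, so there is no p-value and no error between samples, and counts below are by size alone. The deposited values are GCOS signals, a linear intensity scaled by the authors to the same trimmed mean on each array, with array medians of 462.0, 387 and 398 for the lines against FoxO1, FoxO3 and FoxO4. Signals under a floor, the 20th percentile of their array, were set to it before log2 differences were taken, and a gene's difference is the median over its probe sets. The label check used the targeted genes themselves. The brightest Foxo1 probe set read 2778 on the FoxO1-labelled array, 563 on the FoxO3-labelled array and 1827 on the FoxO4-labelled array, which goes against the first label. Its ratio to control in the authors' deposited table was 1.2 with an increase call. The brightest Foxo3 probe set read 2380, 1573 and 386 in the same order, lowest on the FoxO4-labelled and not on the FoxO3-labelled array. For Foxo4 the 2 probe sets disagreed, at 1799, 345 and 80.4 and at 188, 163 and 763, the first lowest and the second highest on the FoxO4-labelled array. None of the 3 labels is therefore borne out by all probe sets of its gene. Arrays are therefore called by their labels throughout, and a direction is not assigned to a known depletion. All 8 myoblast markers examined lay above the floor on every array, Myod1 at 2959, 2140 and 713 and Des at 6907, 7433 and 272 by their brightest probe sets. The ratio of 3' to 5' signal of Actb, a measure of RNA integrity, was 6.31, 5.50 and 3.45 on these arrays, and that of Gapdh was 5.0, 5.90 and 2.23. In a control signal implied by the authors' deposited ratio, described below, they were 2.56 and 2.68. RNA integrity thus read best on the FoxO4-labelled array, and which of the other arrays was worst depended on the gene. Its part in the results below was not tested.

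RefSeq promoter windows, 250 bases before to 50 bases after the gene start on GRCm38.p6, were matched for 7 of the 10 members, in 9 windows. They were searched on both strands for GAANNTTC and TTCNNGAA, which are pairs of facing heat shock units. At least 1 of these motifs was found for 6 of the 7 genes. By window it was 6 of 9, beside 15.1% of all 32851 promoter windows. These 6 are not all separate sequences, since the windows of Hspa1a and Hspa1b are nearly alike and those of Hspd1 and Hspe1 overlap. A run of 3 units, GAA, TTC and GAA or the reverse with NN between them, overlaps both shorter motifs. It was found for Hspd1 and Hspe1 and in 0.603% of all windows. Neither window of Dnajb1 held any of them. The forkhead motif GTAAACA was found in 0 member windows and in 3.65% of all windows. A match describes letters and is not evidence of binding. Windows are shown for 2 small heat shock genes with different patterns across the arrays, for the inducible Hsp70 gene Hspa1a, and for the chaperonin gene Hspe1, which was highest on the same array as Hspb1. Capitals mark the matches, and each window is written 5' to 3' along its gene.
Hspb1 (chr5:135887669-135887968, plus strand): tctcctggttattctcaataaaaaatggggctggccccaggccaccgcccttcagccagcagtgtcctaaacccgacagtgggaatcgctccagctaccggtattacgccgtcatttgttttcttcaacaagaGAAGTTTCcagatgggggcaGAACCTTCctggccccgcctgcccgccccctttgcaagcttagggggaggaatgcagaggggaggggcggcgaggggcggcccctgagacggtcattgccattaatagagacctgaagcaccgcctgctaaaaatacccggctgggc
Hspb8 (chr5:116422815-116423114, minus strand): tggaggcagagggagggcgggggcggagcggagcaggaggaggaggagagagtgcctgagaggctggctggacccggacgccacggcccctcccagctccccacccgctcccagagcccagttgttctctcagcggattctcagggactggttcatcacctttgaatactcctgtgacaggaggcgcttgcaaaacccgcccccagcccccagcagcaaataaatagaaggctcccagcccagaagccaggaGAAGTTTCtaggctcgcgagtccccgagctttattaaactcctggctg
Hspa1a (chr17:34972107-34972406, minus strand): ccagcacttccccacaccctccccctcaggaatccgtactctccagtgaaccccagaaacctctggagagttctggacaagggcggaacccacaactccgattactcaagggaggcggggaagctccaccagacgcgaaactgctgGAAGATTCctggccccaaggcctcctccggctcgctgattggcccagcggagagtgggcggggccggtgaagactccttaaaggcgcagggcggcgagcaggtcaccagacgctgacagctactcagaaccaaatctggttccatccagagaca
Hspe1 (chr1:55087898-55088197, plus strand): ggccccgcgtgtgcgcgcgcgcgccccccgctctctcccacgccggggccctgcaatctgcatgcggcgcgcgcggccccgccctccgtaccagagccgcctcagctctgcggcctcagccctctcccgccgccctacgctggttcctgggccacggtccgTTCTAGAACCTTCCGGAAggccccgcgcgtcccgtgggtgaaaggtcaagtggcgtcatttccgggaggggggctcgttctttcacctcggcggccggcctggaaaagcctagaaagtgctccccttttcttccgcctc
The Hspb1 matches begin 117 and 97 bases before the gene start, and the Hspb8 match begins 2 bases after it. Hspa1b has a window that differs from that of Hspa1a in 4 of 300 bases and holds the same match, 104 bases before the start. The capitals of Hspe1 form a run of 18 bases, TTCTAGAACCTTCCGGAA, that begins 89 bases before its start. Hspd1 and Hspe1 are neighbours on chromosome 1, and 1 window of Hspd1 shares 285 bases with the Hspe1 window, this run included.

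The first question was how chaperone signal was distributed over the 3 arrays. Of the 26 probe sets, 17 were highest on the FoxO3-labelled array, beside 31.9% of all 34958 single-symbol probe sets. The lowest signal was on the FoxO1-labelled array for 15 of the 26, beside 31.7%. Chaperone probe sets are bright, and 20 of the 26 were in the upper 25% by mean signal. Among these 16 of the 20 were highest on the FoxO3-labelled array, beside 38.4% of all probe sets there, and 12 of the 20 were lowest on the FoxO1-labelled array, beside 35.6%. Small and other chaperones had different low arrays. The FoxO4-labelled array was lowest for 6 of the 8 small heat shock probe sets, beside 33.0% of all probe sets, and the FoxO1-labelled array for 2. Among the 18 other probe sets it was lowest for 3, whereas the FoxO1-labelled array was lowest for 13. Probe sets of 1 gene on the same arrays are not independent, and the 8 small ones read only 3 genes. Every Hspb8 probe set counted toward the 6, 1 of them at 899 beside 953 on the FoxO3-labelled array. The brightest Hspb1 probe set was lowest on the FoxO1-labelled array. In the upper 25% the FoxO4-labelled array was lowest for 7 of the 20, beside 31.1%.

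**Figure D1:**
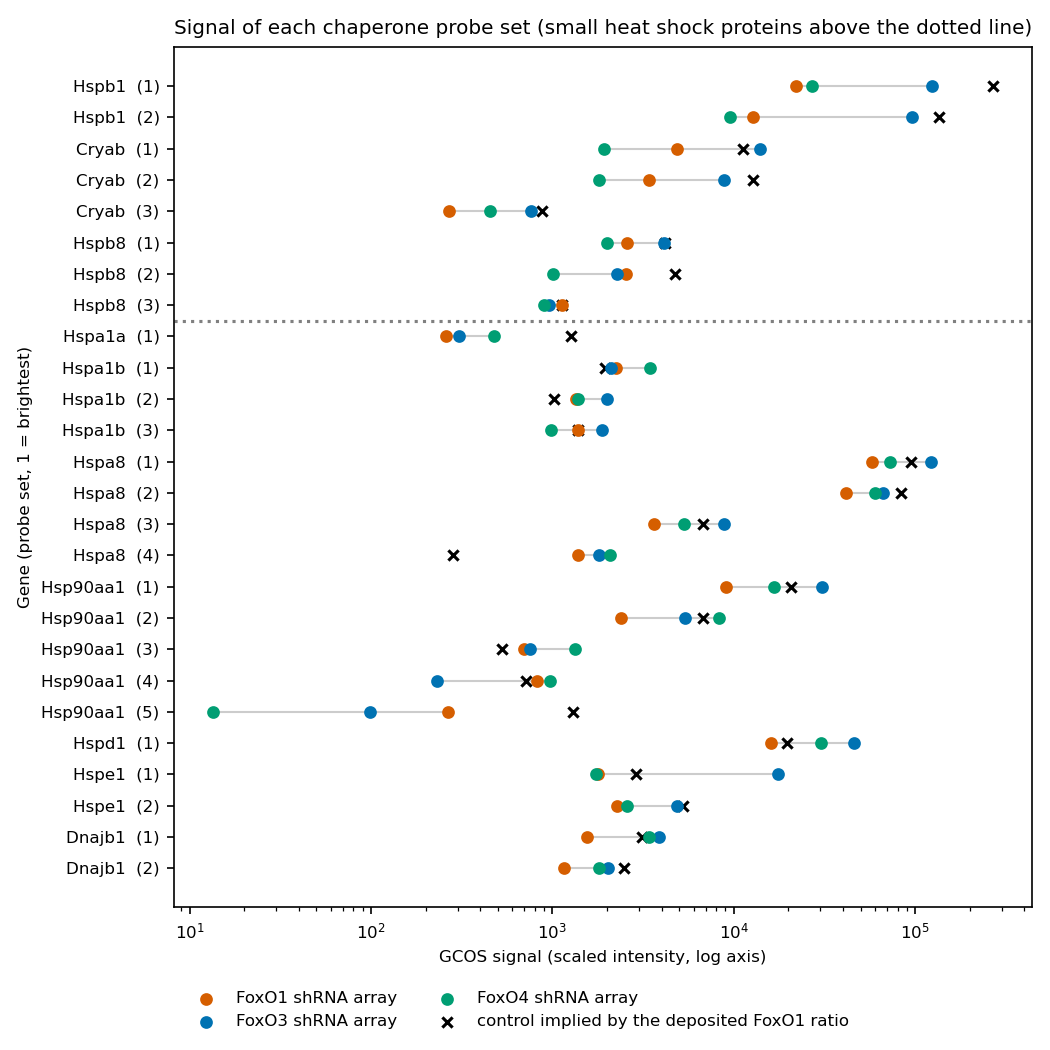
Signal of each of the 26 chaperone probe sets (log axis) on the 3 arrays, with a cross for the control implied by the authors' deposited FoxO1 ratio. The FoxO3-labelled array is the highest of the 3 for 17 probe sets, and the small heat shock proteins above the dotted line are lowest on the FoxO4-labelled array for 6 of 8.

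Hspb1, a small heat shock protein that protects actin filaments under stress, was among the brightest genes of the set. Its brightest probe set read 22151 on the FoxO1-labelled array, 123833 on the FoxO3-labelled array and 26866 on the FoxO4-labelled array. The other Hspb1 probe set read 12795, 95525 and 9557 in that order. Both were high on the FoxO3-labelled array, by 5.59-fold and 7.47-fold over the FoxO1-labelled array and by log2 differences of 2.20 and 3.32 over the FoxO4-labelled array. The 2 low arrays differed by at most 1.34-fold, and the probe sets disagreed on which was lower.

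Cryab encodes alpha-B crystallin, a partner of Hspb1 that binds desmin and titin in muscle. Its brightest probe set read 4877 on the FoxO1-labelled array, 13870 on the FoxO3-labelled array and 1927 on the FoxO4-labelled array. The second Cryab probe set read 3426, 8805 and 1818, and the dimmest read 270, 765 and 450. All of them were highest on the FoxO3-labelled array, between 2.57-fold and 2.84-fold over the FoxO1-labelled array. The 2 brighter ones were 7.20-fold and 4.84-fold over the FoxO4-labelled array, and the dim one only 1.70-fold.

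Hspb8, which works with the co-chaperone Bag3 in clearing damaged muscle proteins by autophagy, varied less. Its probe sets read 2566, 4109 and 1992, then 2531, 2278 and 1005, then 1135, 953 and 899 in the order FoxO1, FoxO3 and FoxO4. Each was lowest on the FoxO4-labelled array, but 1 of 3 was highest on the FoxO3-labelled array. The gene median lay 1.04 (log2) higher on the FoxO3-labelled than on the FoxO4-labelled array, just past 2-fold.

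The Hsp70 members fell into 2 patterns. Hspa8, the constitutive Hsp70 that also serves chaperone-mediated autophagy, read 58078, 121902 and 73042 with its brightest probe set. The next 2 Hspa8 probe sets read 41663, 66630 and 60364, and 3647, 8880 and 5323. All 3 were lowest on the FoxO1-labelled array and highest on the FoxO3-labelled array, with 1.60-fold to 2.44-fold between those arrays. The dimmest Hspa8 probe set read 1392, 1807 and 2073, also lowest on the FoxO1-labelled array. The stress-inducible pair did not share this order. Hspa1a, read by 1 dim probe set, gave 258, 307 and 478, and was highest on the FoxO4-labelled array. Hspa1b gave 2240, 2118 and 3435 with its brightest probe set, and 1346, 2008 and 1383, and 1385, 1867 and 986 with the others. The highest array of Hspa1b therefore depended on the probe set, and no Hspa1a or Hspa1b probe set was 2-fold apart between any 2 arrays. Both genes encode nearly the same protein and lie side by side on chromosome 17, so probes may read both, which was not tested.

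Hsp90aa1, the inducible cytosolic Hsp90 that matures kinases, hormone receptors and muscle myosin, had 5 probe sets that did not agree. The brightest read 9004 on the FoxO1-labelled array, 30838 on the FoxO3-labelled array and 16586 on the FoxO4-labelled array. The second read 2388, 5387 and 8320. These 2 were lowest on the FoxO1-labelled array, by 3.43-fold and 2.26-fold against the FoxO3-labelled array. The 3 dimmer Hsp90aa1 probe sets read 694, 750 and 1340, then 824, 231 and 974, then 265, 98.2 and 13.5, the last under the floor. Of these, 2 were higher on the FoxO1-labelled than on the FoxO3-labelled array by over 2-fold. The median over all 5 was -0.11 (log2) for FoxO1 minus FoxO3, while the brightest gave -1.78.

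Hspd1 and Hspe1 encode the mitochondrial chaperonin Hsp60 and its co-chaperonin lid Hsp10. Hspd1 read 15956 on the FoxO1-labelled array, 45822 on the FoxO3-labelled array and 30276 on the FoxO4-labelled array. Hspe1 read 1776, 17507 and 1740 with 1 probe set and 2272, 4842 and 2579 with the other. Both genes were highest on the FoxO3-labelled array, by 2.87-fold over the FoxO1-labelled array for Hspd1 and by 9.86-fold and 2.13-fold for Hspe1. On the FoxO4-labelled array Hspd1 lay 1.90-fold above the FoxO1-labelled array, while both Hspe1 probe sets lay within 1.14-fold of it, so the pair did not keep 1 ratio. The larger Hspe1 difference came from a probe set whose name ends in _s_at, a suffix for probes shared by several transcripts.

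Dnajb1, the Hsp40 that delivers clients to Hsp70 and stimulates its ATPase, read 1553, 3847 and 3395 with 1 probe set and 1164, 2037 and 1804 with the other, in the order FoxO1, FoxO3 and FoxO4. It was low on the FoxO1-labelled array alone. The FoxO3-labelled and FoxO4-labelled arrays differed by 1.13-fold with each probe set.

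Between the FoxO1-labelled and FoxO3-labelled arrays, 13 of the 26 probe sets were at least 2-fold lower on the first and 2 at least 2-fold higher. Over all single-symbol probe sets these shares were 19.5% and 22.2%. In the upper 25% by signal the members gave 12 lower and 0 higher of 20, beside 14.2% and 11.1%. By gene, 5 of 10 were at least 2-fold lower, namely Hspb1 at -2.69, Hspe1 at -2.20, Hspd1 at -1.52, Cryab at -1.50 and Dnajb1 at -1.06 (log2), and 0 were higher, beside 15.8% and 19.6% of all genes. The median over the members was -0.97, and over all genes it was 0.15. That 0.15 is also the value of genes under the floor on both arrays, such as Hspb3.

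Against the FoxO4-labelled array, the FoxO1-labelled array had 2 of 26 probe sets at least 2-fold lower and 3 higher, below the background of 19.2% and 21.4%. After centring the arrays on their medians the split was 6 lower and 3 higher, beside 23.2% and 18% of all probe sets so centred. In the upper 25% there were 2 of 20 each way, beside 10.1% lower and 8.82% higher. By gene 0 of 10 passed 2-fold either way, beside 15.0% lower and 18.7% higher among all genes. All 7 members that are not small heat shock proteins were below 0, beside 44.5% of all genes, with a median of -0.88 and values from -0.92 for Hspd1 to -0.04 for Hspa1b. The 3 small members were at 0.07 for Hspb1, 0.37 for Hspb8 and 0.91 for Cryab, and 55.5% of all genes were above 0. Genes under the floor on both arrays, such as Hspb3, have a value of 0.07 and count among the 55.5%. The sign of Hspb1 is not settled, since it was -0.14 after centring and -0.28 with the brightest probe set, and Cryab was -0.74 with its 1 plain probe set (a name ending in a number and _at).

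Between the FoxO3-labelled and FoxO4-labelled arrays, 7 of 26 probe sets were at least 2-fold higher on the first and 1 lower, beside 19.7% and 20.7%. Among bright probe sets the counts were 7 and 0 of 20, beside 12.9% and 12.5%. The genes past 2-fold were Hspb1 at 2.76, Cryab at 2.28, Hspe1 at 2.12 and Hspb8 at 1.04 (log2), 4 of 10 beside 16.4% of all genes. No member gene was at least 2-fold lower, beside 17.0%. The remaining 6 members lay between -0.64 for Hspa1a and 0.60 for Hspd1. With plain probe sets only, Cryab was at 0.76, Hspe1 at 0.91 and Hspb8 at 0.56, all under 2-fold, and Hspb1 had no such probe set. Hspe1 was at 3.33 with its brightest probe set.

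**Figure D2:**
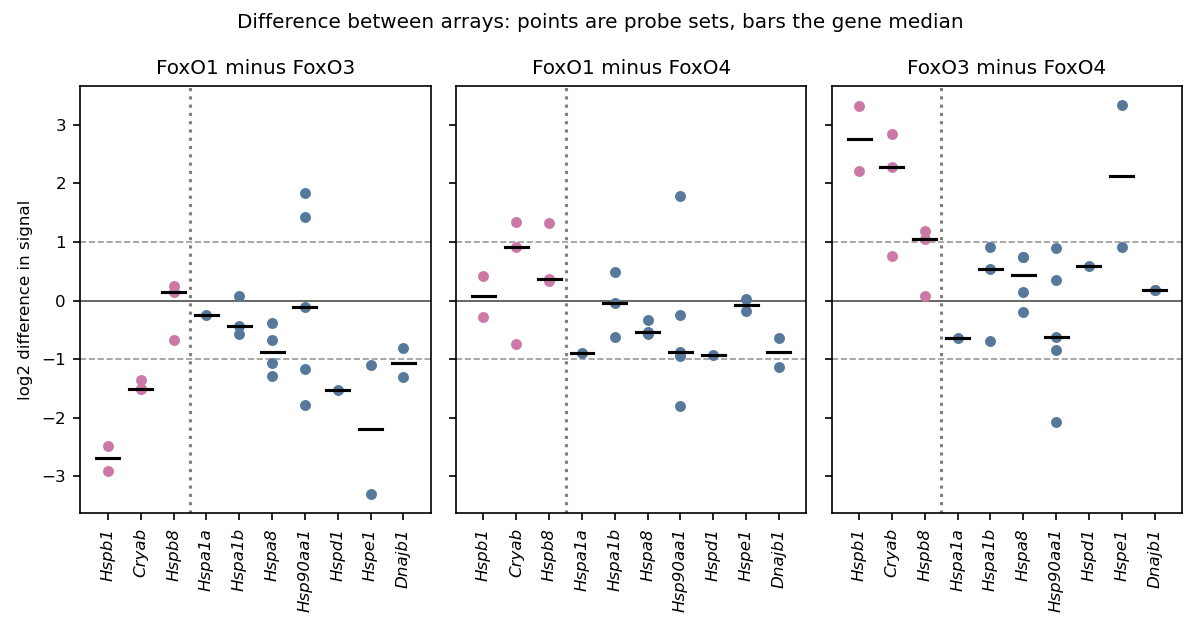
Log2 difference in signal for each pair of arrays, with points for probe sets, bars for gene medians, dashed lines at 2-fold and the small heat shock proteins left of the dotted line. By gene median the small members lie above the others for FoxO1 minus FoxO4 and, except for Hspe1, for FoxO3 minus FoxO4. Single probe sets overlap, such as 1 of Cryab at -0.74 and 1 of Hsp90aa1 at 1.78 for FoxO1 minus FoxO4.

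Small and other chaperones were compared by their medians over 3 and 7 genes. For FoxO3 minus FoxO4 the small members had a median of 2.28 and the others 0.44, a difference of 1.84 (log2). For FoxO1 minus FoxO4 the medians were 0.37 and -0.88, a difference of 1.25. For FoxO1 minus FoxO3 they were -1.50 and -0.87, a difference of -0.63 that the single value of Hspb8, 0.15, shows not to hold for every small member. Its size also varied, at -0.20 with the brightest probe sets, -0.28 with plain ones and -0.17 in the upper 25%. With Hspe1 and Dnajb1 left out of the others it was -1.07. The FoxO3 minus FoxO4 difference was 0.49 with plain probe sets only, which leave out both Hspb1 probe sets and the 2 brighter ones of Cryab. The disagreement between probe sets of 1 gene can be read from other genes. Error between cultures or arrays is shared by probe sets on the same arrays, so this spread does not measure it. For genes with exactly 2 probe sets, both in the upper 10% by signal, the SD of the difference between the 2 was 0.67 for FoxO1 minus FoxO3, 0.78 for FoxO1 minus FoxO4 and 0.91 for FoxO3 minus FoxO4 (log2, 384 genes). With both in the upper 25%, where 20 of the 26 chaperone probe sets lay, it was 0.93, 1.0 and 1.08 over 1179 genes. Over all 4694 such genes, dim ones included, it was 1.93, 1.96 and 1.87. A 2-fold difference, 1 in log2, is smaller than this SD and about as large as the SD in the upper 25%. Values just past 2-fold, such as Hspb8 at 1.04 for FoxO3 minus FoxO4 and Dnajb1 at -1.06 for FoxO1 minus FoxO3, are of that size.

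The authors' deposited table also gives the log2 ratio of the FoxO1 line to control RNAi with a change call. Of the 26 chaperone probe sets, 9 carried a decrease call in the authors' deposited table, beside 4.64% of all single-symbol probe sets, and 2 a marginal decrease, beside 0.609%. None of the 26 carried an increase call in the authors' deposited table, beside 1.48%. Calls are commoner among bright probe sets, and in the upper 25% the authors' deposited table had 8 decrease and 2 marginal decrease calls among 20 members, beside 12.9% and 1.2%. It had 0 increase calls there, beside 5.42% in the authors' deposited table. The decrease calls of the authors' deposited table covered both Hspb1, all 3 Cryab, 2 Hspa8 and 2 Hsp90aa1 probe sets, and both marginal ones were of Hspe1.

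By size, 13 of the 26 deposited ratios were at -1 or lower and 1 at 1 or higher, beside 20.6% and 22.0% of all probe sets in the authors' deposited table. In the upper 25% the counts were 10 and 1 of 20, beside 12.2% and 10.8% there. By gene 5 of 10 had a median ratio of -1 or lower in the authors' deposited table, namely Hspb1, Cryab, Hspa1a, Hsp90aa1 and Dnajb1, and 0 were higher, beside 17.1% and 18.8% of all genes. Hspb1 lay at -3.6 and -3.4 and Cryab at -1.9, -1.7 and -1.2 in the authors' deposited table, while Hspb8 lay at -0.9, -0.7 and 0.0 with no change called. Hsp90aa1 lay at -1.2 and -1.5 with its 2 brightest probe sets in the authors' deposited table, and its 3 dimmer ones lay at 0.4, 0.2 and -2.3 without a call. Dnajb1 lay at -1.0 and -1.1 in the authors' deposited table, both called as no change. Hspa8 lay at -0.7, -1.0 and -0.9 with its 3 brightest probe sets and at 2.3 with the dimmest, which carried no call in the authors' deposited table. Hspa1a was at -2.3 and Hspa1b between 0.0 and 0.4, all uncalled in the authors' deposited table, so the near-identical genes gave unlike readings. Hspd1 was at -0.3 in the authors' deposited table and its partner Hspe1 at -0.7 and -1.2.

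**Figure D3:**
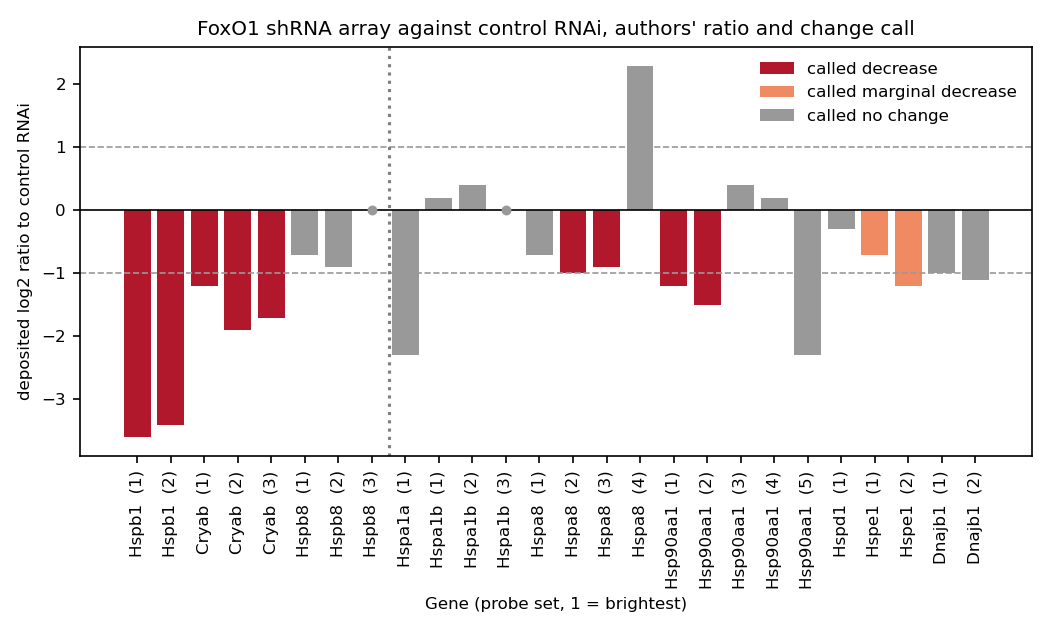
The authors' deposited log2 ratio of the FoxO1 line to control RNAi for each chaperone probe set, coloured by their change call, with dashed lines at 2-fold and points marking ratios of 0. The 2 Hspb1 bars are the lowest, at -3.6 and -3.4.

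Dividing the FoxO1 signal by its deposited ratio gives an approximate control signal, which is not a measured array. For the brightest Hspb1 probe set it was 268597, above the 123833 of the FoxO3-labelled array. Gene values of the FoxO3-labelled array against it were -0.81 for Hspb1, -0.20 for Cryab and -0.25 for Hspb8, and 1.22 for Hspd1 and 1.25 for Hspe1 (log2). On the FoxO4-labelled array the same values were -3.57 for Hspb1, -2.54 for Cryab, -1.07 for Hspb8, 0.62 for Hspd1 and -0.87 for Hspe1. By this measure all 3 small members were at least 2-fold lower by gene median on the FoxO4-labelled array, beside 16.6% of all genes. On the FoxO3-labelled array none of their medians was, beside 16.5%, though the brightest Hspb1 probe set was at -1.12 and 1 Hspb8 probe set at -1.05. Hspa1a, with its dim probe set, was at -2.05 on the FoxO3-labelled and -1.41 on the FoxO4-labelled array. The 3 lines share this control, so their values against it are not independent.

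Markers of muscle differentiation moved with some of these values and against others. Their summed signal over 14 genes was 28015 on the FoxO1-labelled array, 15226 on the FoxO3-labelled array and 12352 on the FoxO4-labelled array, beside 271317 in the implied control. Myog read 2673, 653 and 159, Actc1 1931, 739 and 336 and Tnnc2 926, 99.2 and 73.8, each highest on the FoxO1-labelled array, where Hspb1 and Cryab were lower than on the FoxO3-labelled array. For FoxO1 minus FoxO3 the muscle list had a median of 1.0 (log2), with 7 of 14 genes at least 2-fold higher and 1 lower, opposite to Hspb1 and Cryab, beside 19.6% and 15.8% of all genes. Against control the direction was shared, with 14 of 14 muscle genes at least 2-fold lower and a median of -3.5 in the authors' deposited table, beside 17.1% of all genes. For FoxO1 minus FoxO4 the list had a median of 2.41, with 11 genes higher and 1 lower. On the FoxO4-labelled array Neb, Tnnc2 and Myh3 were at or under the floor, and on the FoxO3-labelled array Neb was. Other muscle genes differed, since Tnnt1 read 2781, 128 and 6281 and Ckm 1261, 738 and 1316 by its brightest probe set, both highest on the FoxO4-labelled array. The summed signal of 8 fibroblast markers was 464472, 149899 and 290730, with Dcn at the floor on the FoxO1-labelled array and Pdgfra on the FoxO3-labelled array. Macrophage markers summed to between 3046 and 3675 over 5 genes. The part of these markers in the chaperone values was not tested, and in RNA from a culture fewer cells of a type and less RNA per cell cannot be told apart.

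Other genes of the chaperone network were taken from lists of 83 genes, of which 78 were measured. For FoxO1 minus FoxO3, 4 were at least 2-fold higher and 11 lower. Their median was -0.19, beside 0.15 over all genes, which is the value of genes under both floors. The split became 3 higher and 18 lower after centring, beside 15.0% and 20.8% of all genes so centred. For FoxO1 minus FoxO4 it was 8 and 11, or 7 and 18 after centring, beside 14.9% and 19.4%, and for FoxO3 minus FoxO4 it was 9 and 4. As shares of 78 genes the counts without centring lie near or below the 15.0% to 19.6% of all genes in each direction.

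The TRiC chaperonin, which folds actin and tubulin in the cytosol, had 8 of 9 genes below 0 for FoxO1 minus FoxO3 and for FoxO1 minus FoxO4. The list had medians of -0.96 for FoxO1 minus FoxO3 and -0.81 for FoxO1 minus FoxO4, with 4 at least 2-fold lower and 0 higher in each, beside 15.8% and 15.0% of all genes lower. The exceptions to the sign were Cct4 at 0.12 in the first pair and Cct8 at 0.53 in the second. Cct6a read 14328, 24836 and 35311 with its brightest probe set, lowest on the FoxO1-labelled array. By their brightest probe sets Cct2 read 29143, 79266 and 15078, and Cct8 4600, 5935 and 2333. Both were highest on the FoxO3-labelled and lowest on the FoxO4-labelled array. For Cct2 this probe set goes against the gene median counted above, at 0.95 beside -0.54 for FoxO1 minus FoxO4. The lowest value of the list, -2.80 for Cct6b, rests on a signal of 80.9 at the floor of the FoxO1-labelled array.

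Co-chaperones of Hsp70 and Hsp90 were mixed. Hsph1, the Hsp110 that exchanges nucleotide on Hsp70, read 3464, 11125 and 4140 with its brightest probe set, an order like that of Hspe1. Stip1, which bridges Hsp70 and Hsp90, read 3142, 5729 and 6674, lowest on the FoxO1-labelled array. So was the brightest probe set of Fkbp4, a prolyl isomerase of Hsp90 complexes, at 1457, 2870 and 2563. The Fkbp4 probe sets did not all share 1 sign for FoxO1 minus FoxO4. For FoxO3 minus FoxO4 its gene median was 1.40, beside 0.16 with the brightest. Bag1, a nucleotide exchange factor, read 4000, 7904 and 3716. Others were highest on the FoxO1-labelled array. Sil1, the nucleotide exchange factor of Hspa5, read 8615, 2450 and 2033, Dnajb2, an Hsp40 with ubiquitin-binding motifs, read 3053, 2209 and 814, and Bag2, an inhibitor of the ubiquitin ligase Stub1, read 2537, 1492 and 1325. Bag3, the partner of Hspb8, read 2315, 2302 and 2569 and differed by less than 2-fold between all arrays. By its brightest probe set the mitochondrial Hsp70 Hspa9 read 8217, 12941 and 10320, in the order of Hspd1. The endoplasmic reticulum Hsp70 Hspa5 read 64560, 67976 and 64177 by its brightest probe set, nearly level.

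The 7 genes listed by symbol as small heat shock genes outside the set had a median of 0.18 for FoxO1 minus FoxO3. That median is the value of Hspb9, which rests on weak signals. Hspb9 read 82.8 on the FoxO1-labelled array, near the floor, and 58.6 on the FoxO3-labelled array, under the floor. Of the 7 genes, 3 were at least 2-fold higher, namely Cryaa at 2.02, Hspb11 at 1.89 and Hspb2 at 1.07. At least 2-fold lower were 0, and the shares of all genes were 19.6% higher and 15.8% lower. Cryaa rests on a signal of 30.1, under the floor of the FoxO3-labelled array. Hspb11 was at 0.81 with its brightest probe set. Hspb2 is the chromosomal neighbour of Cryab and a muscle small heat shock protein, and it read 2977, 1420 and 626, highest on the FoxO1-labelled array, whereas Cryab was highest on the FoxO3-labelled array. Hspb7, a heart and muscle member, read 427, 458 and 1212 with its brightest probe set, and Hspb6 read 1349, 2018 and 1816. Among heat shock transcription factors, Hsf2 read 457, 463 and 440 with its brightest probe set, while the dim Hsf4 read 280, 1018 and 683.

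**Figure D4:**
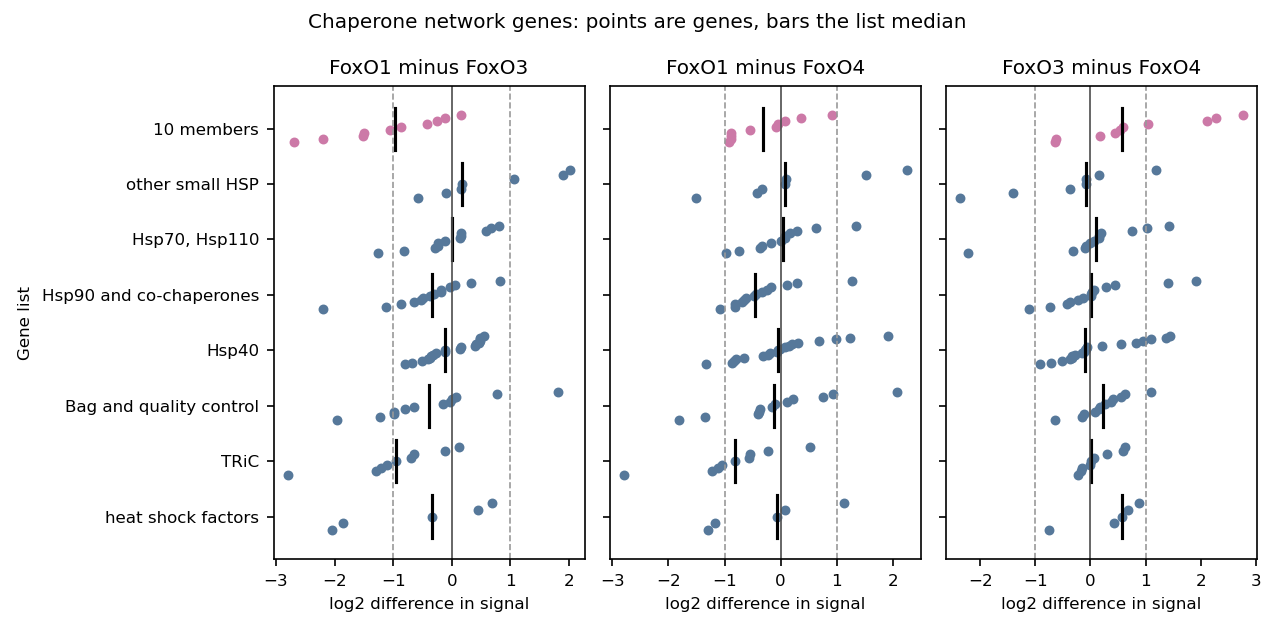
Gene values (log2 difference in signal) of the 10 members and of the other chaperone lists for each pair of arrays, with bars at list medians and dashed lines at 2-fold. TRiC has medians of -0.96 and -0.81 in the first 2 panels. The other genes listed as small heat shock genes have medians of 0.18 and 0.07 there. The first is the value of Hspb9, near or under the floor, and the second a value of genes under both floors. For FoxO1 minus FoxO3, 3 of the 7 are at least 2-fold higher and 0 lower, beside 19.6% and 15.8% of all genes. For FoxO1 minus FoxO4, 2 are higher and 1 lower, beside 18.7% and 15.0%.

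Patterns most like the small members were sought over the 3 arrays among 25593 probe sets with signal above an array median. The measure was the largest difference between mean-centred log2 signals. With only 3 arrays, so many probe sets can hold near matches to many patterns, so a close match is descriptive only. For the brightest Cryab probe set the closest gene was Slc2a1, the glucose transporter GLUT1, at 0.01 with 3937, 11073 and 1550. Then came Nup155, a nuclear pore protein, and Fxyd2, a regulator of the sodium pump, each at 0.01. Fxyd2 read 345, 961 and 135, under the array median on the FoxO1-labelled and FoxO4-labelled arrays. For Hspb1 the closest genes were Zfp445, Sel1l2 and Rad18, at 0.00, 0.00 and 0.03. These 3 had signals of 43.4 to 86.0 on the FoxO1-labelled array, around its floor of 81.2, so their likeness rests on weak values.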

How the data were processed

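Signals were deposited by the authors as GCOS intensity values per probe set (software named in the submitters' processing notes, version not given in the sources used here), and their 2% trimmed mean is 1000 on each of the 3 arrays. Per the file headers, the authors' second table compares the lines with control RNAi as log2 ratios, given in steps of 0.1, beside change calls. Of its columns only the FoxO1 ratio followed its own array by identifier (r = 0.58 across 45101 probe sets, and -0.01 and -0.00 for FoxO3 and FoxO4), so the others were not used.

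Before log2, signals under an array's 20th percentile (81.2, 73.1 and 77.3 for FoxO1, FoxO3 and FoxO4) were set to it, and differences between arrays were counted at 2-fold. Probe sets that carry only that gene's symbol were summarised per gene by their median. Of 45101 probe sets 34958 had 1 symbol, 932 several and 9211 none, and current names came from the RefSeq table of GRCm38.p6, where 34754 of the single-symbol probe sets had their Entrez identifier. No count model or test was possible with 1 array per line, and array number limits the precision.

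The members and lists were chosen with earlier results of these data known. Named network genes were always-named regulators, and genes among the 2 highest or 2 lowest of their list in a pair, with probe sets of 1 sign and signal above the array median. Hspb6, Cryaa, Cct4, Cct8, Bag2, Tnnt1 and Ckm, and the brightest-probe-set signals given for such genes, were added after values were seen. Differences and counts were tested on simulated data. Python 3.11.15, numpy 2.4.6, pandas 2.3.3 and matplotlib 3.10.9 were used.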

Additional observations from a re-analysis of the deposited data

How the results depend on the processing

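Quantile normalization, no floor and a floor at the 40th percentile left each count of chaperone probe sets within 1.5 times its value and each difference between small and other chaperones within the same factor. Centring each array on its median shifts FoxO1 minus FoxO3 by 0.26 and FoxO1 minus FoxO4 by 0.21 (log2) for every gene, and raised the count of chaperone probe sets at least 2-fold apart for FoxO1 minus FoxO4 from 5 to 9. With plain probe sets only, 12 remain, and the counts were 6 for FoxO1 minus FoxO3, 2 for FoxO1 minus FoxO4, 2 for FoxO3 minus FoxO4 and 7 for the deposited ratio, beside 15, 5, 8 and 14, in part because fewer were counted. The difference between small and other chaperones for FoxO3 minus FoxO4 was then 0.49. At 1.5-fold the counts were 13 for FoxO1 minus FoxO4 (4 higher, 9 lower) and 19 for FoxO3 minus FoxO4 (14 higher, 5 lower). At 4-fold they were 3 for FoxO1 minus FoxO3, all lower, 0 for FoxO1 minus FoxO4 and 5 for the ratio (1 higher, 4 lower). The 78 network genes at least 2-fold apart, 15, 19 and 13 over the 3 pairs, became 9, 10 and 6 with the floor at the 40th percentile, 32, 36 and 25 at 1.5-fold, and 4, 3 and 2 at 4-fold. In the upper 25% by signal, a setting chosen after the data were seen, FoxO1 minus FoxO4 had 12 and FoxO3 minus FoxO4 had 8 of 59 network genes. For plain probe sets, the 40th percentile floor, 1.5-fold, 4-fold and these 59 genes, shares over all features were not computed. Those counts therefore show only how the numbers depend on the setting.

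Of 261 recomputed member gene values, 246 moved by under 1.5-fold and 15 by more, and 0 values past 2-fold in the main setting changed sign. The 15 came with the brightest probe set (6), plain probe sets (7) and the upper 25% (2). Centring shifts every gene by less than 1.5-fold, so its 30 values could not pass that limit, and the 246 overstate how stable the values are. Among the 15, sign changed for Hspb8 in FoxO1 minus FoxO3 (0.15, and -0.68 with the brightest probe set), Cryab in FoxO1 minus FoxO4 (0.91, and -0.74 with plain probe sets), Hspa1b in FoxO3 minus FoxO4 (0.54, and -0.70 with the brightest), Hsp90aa1 in the same pair (-0.63, and 0.89 with the brightest) and Hspa8 there (0.44, and -0.20 with plain probe sets). The Hspa8 ratio to control was -0.80, and 2.30 from the 1 plain probe set. The causes were not tested. No paired analysis was possible because each line has 1 array and the labels give no replicate number. Saturation of the brightest signals was not tested.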
